A study of Mus musculus with 28 samples.

Results

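Islet hormones and granule proteins are described here through 10 genes, of the 35928 gene symbols that the transcript tables resolve to. The members were taken by name: the insulin genes Ins1 and Ins2, glucagon (Gcg), somatostatin (Sst), pancreatic polypeptide (Ppy), islet amyloid polypeptide (Iapp), peptide YY (Pyy), the chromogranins Chga and Chgb, and the prohormone convertase Pcsk1. All 10 were found in the annotation and in the files, and all 10 passed the filter on low counts in the pancreas. The samples were pancreases of 6 A3B mice and 2 controls, part of a series of 28 mouse liver, pancreas and lung samples. A3B mice carried human APOBEC3B fused to turboGFP behind a tetracycline-responsive promoter at ColA1, together with CAGs-rtTA3, a driver that is active broadly in adult tissues and not only in the pancreas. Controls 45 and 168 carried the A3B transgene without the driver. Mice were adults started on doxycycline food at 4 weeks of age, and the labels give 10 days of doxycycline for each of these pancreases, controls included. The paper's methods also have control littermates fed doxycycline, whereas a figure legend marks its 2 pooled control animals as without it. The genotype labels of A3B pancreases 44 and 137 name A3B alone and those of control pancreases 45 and 168 name both transgenes, whereas the titles and the liver labels of the same mice give the groups used here. The transgene itself was not analysed here, so the groups rest on the titles.

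Islets are small clusters of endocrine cells scattered through the exocrine pancreas, most of whose mass is acinar tissue that makes digestive enzymes. Beta cells store insulin together with Iapp, alpha cells store glucagon, delta cells somatostatin and PP cells pancreatic polypeptide, while Pyy is made by several islet cell types and by endocrine cells of the gut. The hormones are cut from precursors by convertases such as Pcsk1 and packed into dense-core granules whose soluble matrix includes the chromogranins, which endocrine cells of all islet types make.

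Expression of these genes has long been studied through short elements near their start sites, among them the cyclic-AMP response element and the E-box of the insulin promoters. RefSeq promoter windows on GRCm38.p6, from 250 bases before to 50 after the start, matched 9 of the 10 members, all but Ins2. The stretches that hold the best-known elements are shown because genes with the same element behaved differently below, with the matched letters in capitals. The full response element TGACGTCA, which reads the same on both strands, was found in 3 of the 9 members and in 1.79% of the 32851 promoter windows of that length:
Chgb, chr2:132781559-132781588, plus strand: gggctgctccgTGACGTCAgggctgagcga
Sst, chr16:23890874-23890903, minus strand: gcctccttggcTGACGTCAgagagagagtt
Pcsk1, chr13:75089768-75089797, plus strand: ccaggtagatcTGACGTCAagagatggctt
Its shorter core TGACGT, or ACGTCA on the other strand, lies within the full element and was found in 7.51% of all windows and in 4 of the 9 members, Chga being the fourth:
Chga, chr12:102554885-102554914, plus strand: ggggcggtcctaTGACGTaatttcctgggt
The insulin E-box CATCTG, or CAGATG on the other strand, was found in 17.15% of all windows and in 3 of the 9 members:
Ins1, chr19:52264201-52264230, plus strand: ggttcatcaggcCATCTGgtcccttattaa
Iapp, chr6:142298302-142298331, plus strand: gcccacctgctcCATCTGccaatgaaaccc
Gcg, chr2:62483719-62483748, minus strand: ccccattatttaCAGATGagaaatttatat
These matches describe letters only. Further E-box matches in Gcg and Ins1, and a further core match in Pcsk1, are not shown.

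Levels are given as TPM, a share of all transcripts scaled to a fixed total, summed over the transcripts of a gene. TPM corrects for transcript length, so that levels of different genes can be compared. The estimated counts totalled 74836907 to 87633469 in A3B pancreases and 87288183 and 95604352 in the controls. The summed TPM of 24 acinar genes was 519795 and 543535 in the controls and 130601 to 307552 in A3B pancreases, so acinar transcripts took up more than 50% of each control library and 13.1% to 30.8% of each A3B library. The scale chosen for the libraries set the direction of change for 6 of the 10 members, given below on each scale. TMM scaling, which centres the bulk of genes, gave a median log2 fold change (A3B over control) of 0.09 over the 19142 genes tested, and scaling by total counts gave 2.29. TMM factors were 0.21 for control 45 and 0.44 for control 168, against 1.30 to 1.79 in A3B pancreases. In a whole piece of tissue, fewer cells of a type and less RNA per cell cannot be told apart.

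Ins2 was the most abundant member in each pancreas, followed in both controls by Ins1, Iapp and Gcg, whereas in A3B pancreases 44 and 53 Gcg exceeded both Ins1 and Iapp. On the TPM scale Ins2, the main mouse insulin gene (chromosome 7, 142678656 to 142743381, minus strand), stood at 2824, 5179 and 10643 TPM as the lowest, median and highest of the A3B pancreases, and at 2535 and 2609 TPM in controls 45 and 168. Each A3B library lay above both controls on this scale. For Ins1, a second insulin gene that arose by retroposition (chromosome 19, 52264297 to 52265476, plus strand), the A3B levels were 387, 629 and 1158 TPM and the control levels 467 and 429.7 TPM. The groups overlapped, with 3 A3B libraries (49, 53 and 153) near the controls and the other 3 well above. Iapp (chromosome 6, 142298423 to 142303961, plus strand) was at 240.1, 398 and 557 TPM in A3B pancreases and at 267 and 311 TPM in the controls, again with overlap.

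Relative to the bulk of genes, the same 3 genes were lower. With TMM scaling Iapp fell by 1.91 on the log2 scale (SE 0.35, edgeR quasi-likelihood test, adjusted p = 0.00265) and Ins1 fell by 1.79 (SE 0.50, adjusted p = 0.0210). For Ins2 the log2 fold change was −1.26 (SE 0.55, adjusted p = 0.102), which did not pass the threshold of 0.05. With total counts none of these genes passed the test, and the log2 fold changes turned positive, at 0.45 for Iapp (adjusted p = 0.222), 0.60 for Ins1 (adjusted p = 0.242) and 1.10 for Ins2 (adjusted p = 0.0732). The reads of Ins1 and Ins2 are near-identical over much of their coding sequence, so the division of reads between them by kallisto is uncertain. The Ins1 call also depended on control 45, without which its TMM log2 fold change was −0.96 (adjusted p = 0.280), and the value of Ins2 was −0.54 without control 45 and −1.72 without control 168.

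Glucagon, the alpha cell hormone that raises blood glucose, was several times higher in TPM. Gcg (chromosome 2, 62474530 to 62483650, minus strand) stood at 122, 529 and 1019 TPM in A3B pancreases and at 101 and 102 TPM in the controls. All 6 A3B libraries lay above both controls, by a small margin in A3B pancreas 153 and by the widest in 44. Its log2 fold change was 0.04 with TMM (SE 0.71, adjusted p = 0.973) and 2.42 with total counts (SE 0.74, adjusted p = 0.0137). The 95% confidence interval with TMM, −1.57 to 1.65, leaves a wide range of changes in either direction possible.

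Pyy, a gut and islet peptide of the pancreatic polypeptide family, followed the same course. It lies at chromosome 11, 102106676 to 102107832, minus strand. Its A3B levels were 35.3, 64.5 and 195 TPM against 11.5 and 11.8 TPM in the controls, and the groups did not overlap. The log2 fold change was 0.38 with TMM (adjusted p = 0.685) and 2.78 with total counts (SE 0.69, adjusted p = 0.00468). A3B pancreas 53 held the highest Pyy level and the second highest Gcg level. The neighbouring Ppy gene (chromosome 11, 102099930 to 102101319, minus strand), which codes for pancreatic polypeptide, stood at 26.0, 57.5 and 109 TPM in A3B pancreases and at 20.4 and 23.6 TPM in the controls. Its log2 fold change was −0.92 with TMM (adjusted p = 0.148) and 1.46 with total counts (SE 0.51, adjusted p = 0.0240).

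Somatostatin, the delta cell peptide that restrains insulin and glucagon release, did not separate the groups. Sst (chromosome 16, 23889573 to 23890958, minus strand) was at 21.6, 49.7 and 91.4 TPM in A3B pancreases and at 30.4 and 21.0 TPM in the controls. The log2 fold change was −1.52 with TMM (SE 0.57, adjusted p = 0.0724) and 0.94 with total counts (SE 0.50, adjusted p = 0.113). With TMM it was −0.38 without control 45 (adjusted p = 0.719) and −2.13 without control 168 (adjusted p = 0.0351).

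Among the granule proteins, Chga showed the widest separation of all members. Chga (chromosome 12, 102554969 to 102565028, plus strand), an acidic protein of the granule matrix, stood at 55.2, 116 and 177 TPM in A3B pancreases and at 12.9 and 12.2 TPM in the controls. The lowest A3B library was thus far above the higher control, and the group means differed 9.40-fold. Chgb (chromosome 2, 132781278 to 132795079, plus strand), a related matrix protein, was at 4.07, 6.87 and 11.4 TPM against 0.897 and 1.42 TPM, with means that differed 6.24-fold. With total counts both rose, by 3.27 on the log2 scale for Chga (SE 0.61, adjusted p = 0.000776) and by 2.65 for Chgb (SE 0.48, adjusted p = 0.000633). With TMM the log2 fold changes were 0.88 (SE 0.65, adjusted p = 0.330) and 0.40 (SE 0.44, adjusted p = 0.517). The TMM value of Chga was 1.75 without control 45 and 0.36 without control 168, and that of Chgb 0.71 and 0.17.

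Pcsk1, which cuts proinsulin, lay among Iapp, Ins1, Sst and Ins2 in the order of changes, and apart from the chromogranins. It lies at chromosome 13, 75089826 to 75134861, plus strand, and was the least abundant member, at 0.425, 0.819 and 1.503 TPM in A3B pancreases and 0.390 and 0.733 TPM in the controls. The groups overlapped in TPM. With TMM it fell by 1.60 on the log2 scale (SE 0.50, adjusted p = 0.0313), and with total counts the log2 fold change was 0.59 (adjusted p = 0.359). The TMM call was lost without control 45 (log2 fold change −1.43, adjusted p = 0.143) and without control 168 (−1.73, adjusted p = 0.0665), fits in which the lone control is assumed to vary like the A3B libraries.

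**Figure D1:**
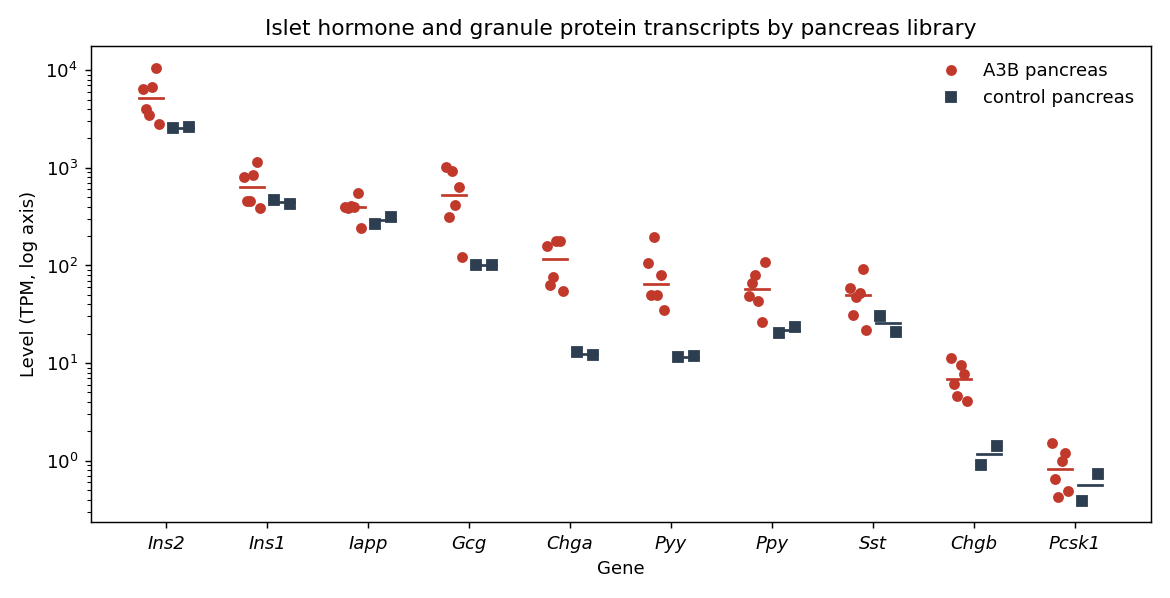
Level of each member in each pancreas library (TPM, log axis), with A3B pancreases as circles, control pancreases as squares and a short line at each group's median. The A3B circles lie above both controls for Ins2, Gcg, Chga, Pyy, Ppy and Chgb, and overlap them for Ins1, Iapp, Sst and Pcsk1.

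Counted over the 10 members, 3 were lower and 0 higher with TMM, beside 14.9% of all genes tested that were lower and 17% that were higher. At an unadjusted p under 0.05, Sst and Ins2 joined the 3 lower genes, and no member was higher. In both directions together, 8318 of the 19142 genes tested passed that unadjusted threshold. The DESeq2 test, with its own size factors, called 4 lower and 0 higher, adding Sst, beside 13.2% and 14.1% of all genes. With total counts 5 members were higher (Chga, Chgb, Pyy, Gcg and Ppy) and 0 lower, beside 70.4% of all genes that were higher. In TPM 6 members lay above both controls in every A3B library, beside 70.8% of all genes. Neither the 5 nor the 6 of 10 exceeded what held for the genes as a whole. Without A3B pancreases 44 and 137, whose genotype labels go against their titles, 5 members were lower with TMM and 0 higher, beside 11.2% and 11.9% of all genes in that fit.

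Against the median of all genes, the members took nearly the same order on each scale, by construction. A change of scale shifts all genes nearly alike, so the scales are not independent checks. On the log2 scale Chga lay 0.79 above that median with TMM and 0.98 above with total counts, Pyy 0.29 and 0.50 above, and Chgb 0.31 and 0.36 above. Gcg lay next to it, with differences of −0.06 and 0.13. Iapp differed from the median by −2.001 with TMM and −1.84 with total counts, Ins1 by −1.88 and −1.69, Pcsk1 by −1.69 and −1.70, Sst by −1.61 and −1.35, Ins2 by −1.35 and −1.19, and Ppy by −1.01 and −0.83. The TMM scale set the controls apart from each other: log2 CPM of Ins2 was 11.81 in control 45 and 10.64 in control 168, although their TPM levels were close.

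**Figure D2:**
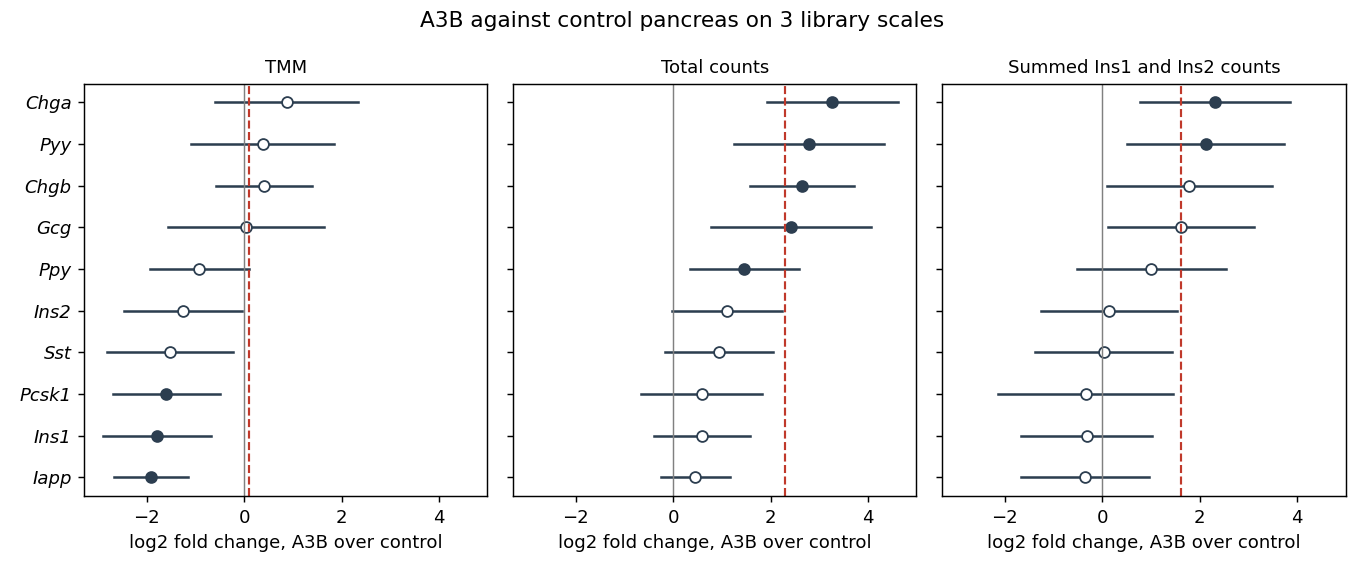
Log2 fold change of each member, A3B over control pancreas, with its 95% confidence interval, under TMM scaling, total counts, and scaling to the summed Ins1 and Ins2 counts. Filled circles have an adjusted p under 0.05, the grey line marks 0 and the dashed red line the median of all 19142 genes (0.09, 2.29 and 1.62). Chga exceeds that median and Iapp stays below it on each scale, and the scales are not independent checks. Ins1 and Ins2 themselves set the last scale.

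Ratios within a library do not depend on how libraries are scaled, and they compared the other members with insulin, the sum of Ins1 and Ins2. For every 1000 TPM of insulin, Chga stood at 14.3, 18.2 and 23.3 TPM as the lowest, median and highest of the A3B pancreases and at 4.32 and 4.03 TPM in the controls. Chgb stood at 0.658, 1.28 and 1.61 TPM against 0.332 and 0.499 TPM. Both were above the controls in 6 of 6 A3B pancreases. The mean log2 ratio of Chga was higher by 2.13 (SD 0.29 in A3B pancreases and 0.07 in controls), a 4.37-fold difference with an exact permutation p of 0.0357 (two-sided). For Chgb the difference was 1.55 (SD 0.45 and 0.42), a 2.93-fold difference with the same exact p of 0.0357. This is the smallest p that 6 against 2 samples allow, and the value adjusted over the 9 ratios tested was 0.107 for each, so neither passed the threshold by this exact permutation test.

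Glucagon and Pyy were also higher per unit of insulin in each A3B library, with a far wider spread. Gcg stood at 37.9, 62.6 and 238 TPM for every 1000 TPM of insulin in A3B pancreases and at 33.8 and 33.5 TPM in the controls. The 2 control ratios were close to each other, and A3B pancreases 53 and 44 stood far above the rest. The mean log2 ratio differed by 1.26 (SD 0.996 in A3B pancreases, exact permutation p = 0.107, adjusted p = 0.241). Pyy stood at 6.53, 11.1 and 49.8 TPM against 3.87 and 3.92 TPM, a log2 difference of 1.70 (exact permutation p = 0.143, adjusted p = 0.257). The share of all genes whose ratio to insulin lay above both controls in each A3B library was 26.8%, beside 4 of the 8 members set against insulin.

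The remaining ratios to insulin overlapped between the groups. For every 1000 TPM of insulin Iapp stood at 47.2, 65.0 and 105 TPM in A3B pancreases against 89.0 and 102 TPM (log2 difference −0.50, exact permutation p = 0.250), and Sst at 6.77, 7.39 and 12.04 TPM against 10.2 and 6.96 TPM (log2 difference −0.08, exact permutation p = 0.893). Ppy ranged from 2.22 to 33.9 TPM in A3B pancreases and stood at 6.82 and 7.80 TPM in the controls (log2 difference 0.43, exact permutation p = 0.786), so the A3B libraries spread to both sides of the controls. Pcsk1 stood at 0.110 to 0.224 TPM against 0.163 and 0.274 TPM (log2 difference −0.44, exact permutation p = 0.250).

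Ins1 was lower relative to Ins2 in each A3B pancreas. For every 1000 TPM of Ins2 there were 109, 126 and 137 TPM of Ins1 as the lowest, median and highest of the A3B pancreases, and 184 and 165 TPM in the controls. The log2 ratio differed by −0.50 (SD 0.12 in each group), with an exact permutation p of 0.0357 and an adjusted p of 0.107. The uncertain division of reads between these genes touches this ratio directly.

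**Figure D3:**
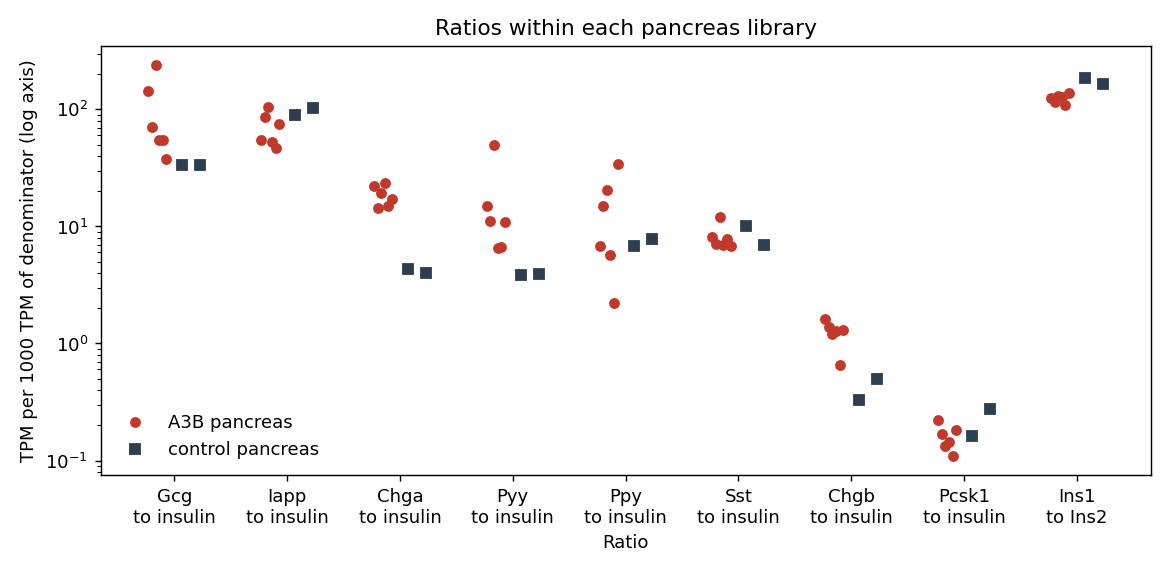
Level of each member per 1000 TPM of insulin (Ins1 plus Ins2), and of Ins1 per 1000 TPM of Ins2, in each pancreas library on a log axis, with A3B pancreases as circles and controls as squares. Chga, Chgb, Gcg and Pyy lie above both controls in every A3B library, and Ins1 to Ins2 lies below.

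The model across all genes was also fitted with libraries scaled to the summed Ins1 and Ins2 counts, a scale chosen after the data were seen. Of the 10 members, Ins1 and Ins2 set this scale and were held in place by construction. Among the others 2 were higher by this edgeR test, beside 27.2% of all genes. These were Chga by 2.32 on the log2 scale (SE 0.79, adjusted p = 0.0213) and Pyy by 2.12 (SE 0.82, adjusted p = 0.0398). Chgb (1.79, adjusted p = 0.0930) and Gcg (1.61, adjusted p = 0.0878) did not pass. With Chgb in place of insulin as the denominator, the log2 ratio of Gcg differed by −0.30 and that of Pyy by 0.14, with exact permutation p of 0.714 and 0.821. Against Chgb the ratios of Iapp and Sst were below both controls in 6 of 6 A3B pancreases, by log2 differences of −2.05 and −1.63 (exact permutation p = 0.0357 and adjusted p = 0.0893 for each). Chgb itself was above both controls in TPM in each A3B library. The share of all genes whose ratio to Chgb lay below both controls was not counted, so these 2 cannot be called particular. The log2 ratio of Ppy to Chgb differed by −1.13 (exact permutation p = 0.286).

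The mix of hormones differed among the A3B pancreases. Within the summed TPM of insulin, Gcg, Sst, Ppy, Pyy and Iapp, insulin held 70.2% in A3B pancreas 53 and 89.4% in 137, and 87.5% and 86.6% in the controls. Gcg held 3.26% in A3B pancreas 153 and 16.7% in 53, against 2.95% and 2.90% in the controls. Ppy was highest in A3B pancreas 153, at 2.91%, where the hormone sum was lowest of the A3B libraries (3739 TPM). It was lowest in 137, at 0.197%, where that sum was highest (13196 TPM). The controls were near each other in that sum, at 3432 and 3508 TPM, and each A3B library exceeded both.

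Transcript use was similar between groups for most members. Ins1, Sst and Chgb had all counts in a single form. The most abundant Ins2 form held 68.6% to 70.0% of the Ins2 counts in A3B pancreases and 67.0% and 69.3% in the controls. The second protein-coding form of Gcg held 15.3% to 20.2% of the Gcg counts in A3B pancreases and 11.6% and 12.3% in the controls. These shares did not overlap. Nor did those of 2 minor protein-coding forms of Pyy. One held 13.5% to 19.9% of the Pyy counts in A3B pancreases and 21.6% and 28.3% in the controls. The other held 0.35% to 4.97% against 0% in both controls. None of these shares was tested, and how many of all transcripts do not overlap was not counted.

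Other genes of the endocrine cells were read from 6 lists with 54 genes, of which 51 passed the filter. With TMM 2 were higher and 11 lower, beside 17% and 14.9% of all genes. The median log2 fold change was −0.44 beside 0.09 for all genes. With total counts 39 were higher and 0 lower, beside 70.4% of all genes that were higher, with a median of 1.89 beside 2.29. The edgeR test on the insulin scale called 5 higher and 0 lower, beside 27.2% of all genes that were higher. Among the 5 were Gc, St18 and Pcsk2, the last named after its value was seen. On that scale the median was 1.14 beside 1.62 for all genes. The median endocrine gene thus lay below the median of all genes on each of the 3 scales, which are not independent checks.

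Of the 12 beta cell genes, 5 were lower with TMM and 0 higher, beside 14.9% of all genes that were lower. With total counts 5 were higher and 0 lower, beside 70.4% of all genes that were higher. Glp1r, the receptor of the incretin glucagon-like peptide, fell by 1.83 with TMM (SE 0.36, adjusted p = 0.00379) while its TPM levels, 1.64 to 4.61 in A3B pancreases and 1.86 and 2.85 in controls, overlapped. Mafa, a transcription factor of mature beta cells, fell by 2.65 (adjusted p = 0.00413) and its TPM was 0.136 to 0.403 against 0.291 and 0.286. Mafa was also the only beta cell gene named here with a negative log2 fold change on the total-count scale (−0.27, adjusted p = 0.675). Trpm5, a cation channel, fell by 1.79 with TMM (adjusted p = 0.0174). Its TPM went the other way, at 0.795 to 2.02 in A3B pancreases, above both controls (0.306 and 0.640).

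Of the 6 alpha cell genes tested, 1 was higher and 0 lower with TMM, where 17% of all genes were higher, and all 6 were higher with total counts, where 70.4% of all genes were. Gc, the vitamin D-binding protein that alpha cells also make, had a log2 fold change of 1.55 with TMM (adjusted p = 0.175) and levels of 13.6 to 82.0 TPM against 5.22 and 1.53 TPM.

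Of the delta, PP and epsilon cell genes 3 were tested, and 0 passed with TMM in either direction. With total counts 3 were higher, as were 70.4% of all genes. Ghrl, the ghrelin gene of epsilon cells, was at 1.07 to 3.24 TPM in A3B pancreases and 0.0318 and 0.205 TPM in the controls (log2 fold change 1.78 with TMM, adjusted p = 0.0725). Hhex, a delta cell factor, and Rbp4 had TMM log2 fold changes of −0.004 and −0.37. Of 9 endocrine transcription factors, 1 was higher and 2 lower with TMM, beside 17% and 14.9% of all genes. With TMM St18 rose by 1.95 (adjusted p = 0.00595), Nkx2-2 fell by 1.72 (adjusted p = 0.00496) and Isl1 fell by 1.31 (adjusted p = 0.0336). With total counts 6 of the 9 were higher and 0 lower, beside 70.4% of all genes that were higher. In TPM Nkx2-2 stood at 3.96 to 6.60 in A3B pancreases, above both controls (3.28 and 2.16). Isl1 overlapped, at 0.812 to 3.84 TPM against 0.430 and 1.80 TPM.

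Of 12 further granule and processing genes 1 was lower with TMM and 0 higher, beside 14.9% and 17% of all genes. With total counts all 12 were higher, beside 70.4% of all genes. Ptprn2, a granule membrane protein, fell by 1.06 with TMM (adjusted p = 0.0270) and rose by 1.14 with total counts (adjusted p = 0.0186). Cpe, which trims prohormones after cleavage, and the convertase chaperone Scg5 had TMM log2 fold changes of −1.003 (adjusted p = 0.0534) and −0.99 (adjusted p = 0.0638). Of 9 exocytosis and excitability genes 3 were lower with TMM and 0 higher, beside the same 14.9% and 17% of all genes. These were the vesicle GTPase Rab3a (−1.62, adjusted p = 0.00225), the granule tether Sytl4 (−1.36, adjusted p = 0.00244) and the calcium channel subunit Cacna1d (−1.36, adjusted p = 0.00872). With total counts the log2 fold changes of these 3 turned positive. On that scale 7 of the 9 genes were higher and 0 lower, beside 70.4% of all genes that were higher.

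Markers of other cell types moved with these results. With TMM 21 of 24 acinar genes were lower, Clps by 4.82 on the log2 scale, beside 14.9% of all genes. In the other lists 17 of 60 genes were higher, none lower, beside 17% of all genes that were higher. The summed TPM of the macrophage list was 2233 to 6433 in A3B pancreases and 52.1 and 572 in the controls, of the ductal list 1407 to 3124 against 111 and 159, of the fibroblast and stellate list 981 to 1513 against 43.2 and 198, and of the endothelial list 174 to 234 against 21.3 and 39.0. The genes higher with TMM were 7 of 8 macrophage genes (Cd68 by 4.02, C1qa by 3.48), 4 of 8 ductal genes (Krt7 by 3.03, Spp1 by 2.56), 5 of 8 fibroblast genes (Pdgfrb by 1.73, Col1a1 by 3.04) and 1 of 7 endothelial genes (Cdh5 by 0.96). None of the T cell, B and plasma cell, adipocyte or neural genes passed this edgeR test in either direction. Nerve cells can also make chromogranins, and the neural list summed to 1.98 to 8.41 TPM against 0.775 and 2.50 TPM. What part these shifts had in the changes of the members was not tested.

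**Figure D4:**
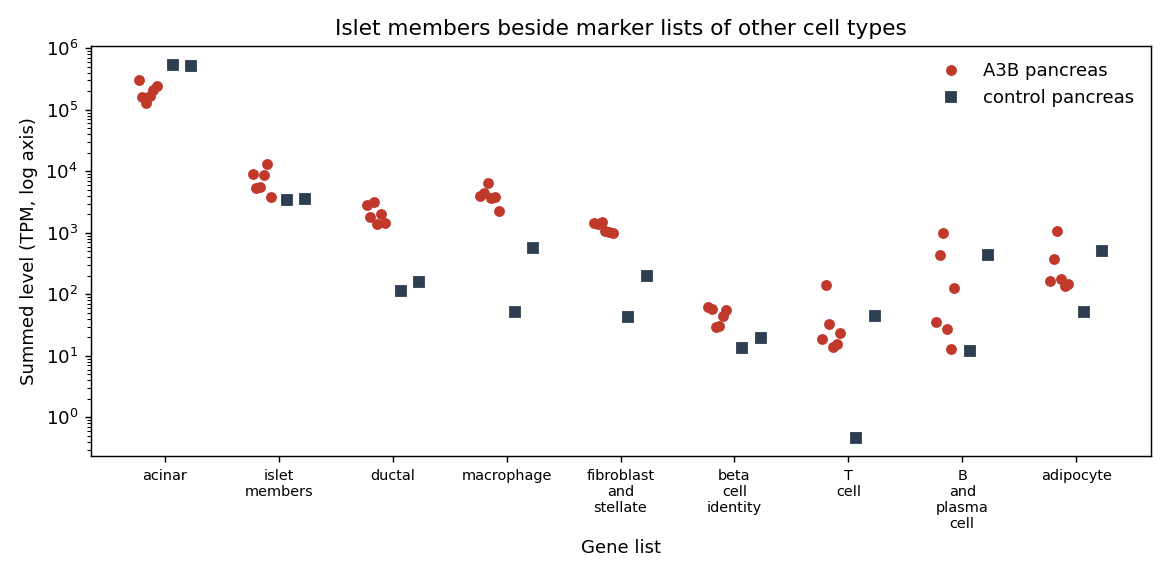
Summed level of the 10 islet members beside marker lists of other cell types and of beta cell identity in each pancreas library (TPM, log axis), with A3B pancreases as circles and controls as squares. The acinar sum is lower in every A3B library and the islet, ductal, macrophage, fibroblast and beta cell sums are higher than in both controls, while the T cell, B and plasma cell and adipocyte sums overlap.

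Outside the pancreas the hormones were low. Lung and pancreas TPM were made by different tools, and acinar transcripts took up a large share of the pancreas libraries. Levels of the 2 tissues are therefore not directly comparable. As listed, Pcsk1 in the lung reached or exceeded its pancreas levels. Chgb stood at 0.718 to 0.890 TPM in control lungs and 0.823 to 1.47 TPM in A3B lungs. As listed, that was near the control pancreases (0.897 and 1.42 TPM) and below every A3B pancreas (4.07 to 11.4 TPM). In the 8 livers of the same experiment, 4 of the 6 A3B livers and control liver 168 were listed at 0 TPM for Ins2, while A3B livers 44 and 153 held 5.62 and 4.85 TPM and control liver 45 held 0.548 TPM. Ins1 stood at 0.896 and 0.696 TPM in A3B livers 44 and 153. These livers also held the highest sums of the acinar list, 513 and 932 TPM, against 30.02 to 161 TPM in the other 6 livers, and the part of this in the insulin values was not tested. In the separate set of 12 liver and lung samples, whose TPM values were made by other tools, Ppy was at 2.48 to 3.74 TPM in 3 A3B lungs and 0.981 to 1.76 TPM in 3 control lungs, and Pcsk1 at 1.78 to 3.73 against 0.833 to 1.74 TPM. The labels give 15 days of doxycycline for these control lungs and 10 for the A3B lungs, so length of treatment and group cannot be told apart there.

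The genes whose log2 CPM with TMM ran most like insulin over the 8 pancreases, groups pooled, were Cdk5r2 (Pearson r = 0.976), Lias (0.969), Gm6472 (0.957), Zfp772 (0.951) and Alg11 (0.951). For Gcg they were Tcf21 (0.969), Aif1l (0.939), Ccn3 (0.938), Irx3 (0.913) and Rab3b (0.910). These r describe the genes picked for them and carry no test, and all share the library factors of the TMM scale. On log2 TPM the r of Lias with insulin was 0.606 and that of Cdk5r2 0.976.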

How the data were processed

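RNA-seq reads of pancreas and liver were quantified by the authors with kallisto against mm10 (GRCm38) transcripts, and the deposited tables give an estimated count and a TPM per transcript. For a further 12 liver and lung samples the authors deposited TPM per gene from GenomicAlignments. Here 116728 of 119414 transcripts (97.75%) were assigned to genes with GENCODE M21, and estimated counts and TPM were summed per gene, counts being rounded. A3B was compared with control pancreas with edgeR 4.0.16 (TMM, filterByExpr, robust quasi-likelihood F test, R 4.3.3), with Benjamini-Hochberg adjustment over all genes tested and a threshold of 0.05. SE is the log2 fold change over the square root of F. Ratios used a pseudocount of 0.1 TPM and exact permutation tests over 28 splits, adjusted over 9 ratios. DESeq2 1.42.0 and limma 3.58.1 (on log2 of TPM plus 1 or 0.1, keeping genes whose mean reached 1 TPM) were alternatives. The edgeR script was tested on simulated data. Promoters came from RefSeq. Members and lists were chosen with earlier results of these data known. Named genes are all members, up to 3 genes of each endocrine list and up to 2 of each other list by smallest p, with lists without a call given by counts, and the 5 genes most correlated with insulin and with Gcg. Single values of 4 genes that fall under this rule or were called are not reported here.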

Additional observations from a re-analysis of the deposited data

Results flagged for a closer look

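Among the A3B pancreases, 4 measures held a library far from the other 5 by Dixon's test, out of 36 measures tested (1 of them in the liver), where chance alone marks about 1 in 20. In A3B pancreas 53, Pyy stood at 49.8 TPM for every 1000 TPM of insulin, with the next library at 15.0 TPM, and Sst stood at 12.04 TPM for every 1000 TPM of insulin, with the next at 8.21 TPM. The same library had a summed adipocyte list of 1078 TPM, with the next at 377 TPM. In A3B pancreas 49 the summed T cell list was 143 TPM, with the next at 32.8 TPM. Without A3B pancreas 53 the log2 difference of the Pyy ratio was 1.30 and its exact permutation p 0.0476, the smallest that this number of samples allows.

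In the lung samples, which entered no comparison, the lowest A3B level lay above the highest control level for Ppy (2.48 against 1.76 TPM) and for Pcsk1 (1.78 against 1.74 TPM). With 3 lungs in each group these differences were not tested, and the A3B lungs had 10 days of doxycycline against 15 in the control lungs.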

How the results depend on the processing

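No paired analysis was possible because the A3B and control pancreases share no mouse number. Scaling moved most results, by its own construction. The 3 members lower with TMM became 0 with total counts, with total counts without the acinar genes, with limma on log2(TPM + 1) or log2(TPM + 0.1), and with insulin scaling, and the 0 higher became 5, 3, 5, 5 and 2. The 11 endocrine companions that were lower became 0 under each of these 5 settings, and the 2 higher became 39, 19, 30, 31 and 5. The 21 acinar genes that were lower became 13 with total counts, where 3 acinar genes were higher. Both limma settings also called 3 acinar genes higher. The 17 genes of other lists that were higher became 31, 29, 30 and 30 under the first 4 settings. Without A3B pancreases 44 and 137, 5 members were lower, and 0 in place of 3 ratios had an unadjusted exact permutation p under 0.05, a size at which no smaller p than 0.0667 can occur. Leaving out each library in turn gave 1 to 5 members lower (1 without control 45, 5 without A3B 137) and 0 to 0 higher, 3 to 14 companions lower (3 without control 45) and 2 to 3 higher, 16 to 22 acinar genes lower, 15 to 20 genes of other lists higher, and 0 to 4 ratios with an unadjusted p under 0.05. No ratio passed after adjustment under any setting. Without a control the smallest exact p is 0.143, so those ratio tests are void. Pcsk1 had a mean under 1 TPM and could not be tested with limma.

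The following log2 fold changes took the opposite sign. With total counts: Ins1 0.60, Ins2 1.10, Sst 0.94, Ppy 1.46, Iapp 0.45, Pcsk1 0.59, Glp1r 0.46, Trpm5 0.43, Rbp4 2.06, Hhex 2.22, Nkx2-2 0.74, Isl1 0.77, Ptprn2 1.14, Cpe 1.41, Scg5 1.15, Rab3a 0.69, Sytl4 0.96, Cacna1d 0.95. With total counts without the acinar genes: Ins2 0.34, Sst 0.17, Ppy 0.71, Rbp4 1.31, Hhex 1.47, Isl1 0.027, Ptprn2 0.41, Cpe 0.65, Scg5 0.41, Sytl4 0.21, Cacna1d 0.20. With limma on log2(TPM + 1): Ins1 0.49, Ins2 0.99, Sst 0.83, Ppy 1.32, Iapp 0.42, Glp1r 0.36, Trpm5 0.69, Rbp4 1.59, Hhex 1.80, Nkx2-2 0.76, Isl1 0.43, Ptprn2 1.07, Cpe 1.38, Scg5 1.01, Rab3a 0.48, Sytl4 0.73, Cacna1d 0.57. With limma on log2(TPM + 0.1): Ins1 0.50, Ins2 0.99, Sst 0.85, Ppy 1.35, Iapp 0.43, Glp1r 0.46, Trpm5 1.4, Rbp4 1.70, Hhex 2.21, Nkx2-2 0.94, Isl1 0.77, Ptprn2 1.25, Cpe 1.44, Scg5 1.16, Rab3a 0.62, Sytl4 1.02, Cacna1d 0.82. With insulin scaling, chosen after seeing the data: Ins2 0.14 (which follows from the scale), Sst 0.03, Ppy 1.01, Rbp4 1.39, Hhex 1.51, Nkx2-2 0.10, Ptprn2 0.38, Cpe 0.65, Scg5 0.33, Sytl4 0.29, Cacna1d 0.23. With no filter on low counts: Hhex 0.039. Without A3B pancreases 44 and 137: Gcg −0.41. Of the ratios, those of Gcg and Ppy to Chgb were −0.30 and −1.13, and that of Sst to insulin in estimated counts was 0.022. With each library left out in turn, the log2 fold change ranged from −0.43 to 0.79 for Gcg, −0.081 to 1.10 for Pyy, −0.87 to 0.43 for Rbp4 and −0.11 to 0.087 for Hhex, and the log2 ratio of Sst to insulin from −0.35 to 0.19. Y-chromosome expression as a covariate, added after seeing the data, turned no sign and left 3 members lower.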
